A study of Mus musculus with 6 samples.

Results

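ZBTB43 chromatin immunoprecipitation followed by sequencing (ChIP–seq) in foetal male germ cells gave 2043 peaks with 491K cells against the input control. Of these peaks, 330 overlapped by at least 1 bp a peak called from the same ZBTB43 library against an IgG control, and also overlapped by at least 1 bp a peak called with 100K cells against input. These 330 IgG-supported, recurring peaks are described here. They were chosen by measured peak calls in 3 lists, so their overlap, score and width in those lists are given as a description only. The remaining input-controlled peaks fell into 548 that were IgG-supported but did not recur with 100K cells, 274 that recurred without IgG support and 891 with neither overlap.

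All 6 libraries came from wild type prospermatogonia of male foetuses at 15.5 dpc, which carried an EGFP reporter transgene and are labelled B6;CBA-Tg(Pou5f1-EGFP)2Mnn/J. The fathers were transgenic and the mothers C57BL/6J by the labels, although a passage of the study's methods also names transgenic mothers, and germ cells were sorted by their EGFP fluorescence, which the Pou5f1 (Oct4) promoter drives. Chromatin from 491K and from 100K cells was precipitated with an anti-ZBTB43 antibody, and the inputs came from the same cell numbers. The IgG controls were made from 415K and from 100K cells. No other genotype or treatment was compared, cells of several animals were combined, and each antibody and cell number had 1 library, while the study counts its ChIP–seq experiments as biological duplicates. Since the peaks of 1 library do not replicate each other, no test was made between classes of peaks, and intervals are 95% Wilson intervals that cover counting error only. The peak lists hold no expression and no read totals, so the identity of the sorted cells was not checked and the depth of each library could not be read from them. The study gives a minimum sequencing depth that all libraries share, not the reads left after filtering.

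ZBTB43 belongs to the BTB zinc-finger proteins, which bind DNA through their zinc fingers and pair with other proteins through the BTB domain. Purine-pyrimidine repeats (PPRs), in which purine and pyrimidine bases alternate, can turn from right-handed B-DNA into left-handed Z-DNA, and runs of CA or CG steps are the classical examples. Prospermatogonia are the foetal precursors of spermatogonia, in which DNA methylation is laid down anew after its erasure in primordial germ cells. The question put to the members was which sequences and genes they lie at, and how the 4 peak lists behave there.

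Sequences of the members are shown first, because an uninterrupted alternation of purines and pyrimidines was their most frequent feature. All are plus-strand sequences of GRCm38 (mm10) from RefSeq. A first set shows 2 members among the 10 highest scores, with capitals on the start of the longest alternating tract, which ran on beyond the printed window in both.
19072 bp from 1700010I14Rik, chr17:9030759-9030868: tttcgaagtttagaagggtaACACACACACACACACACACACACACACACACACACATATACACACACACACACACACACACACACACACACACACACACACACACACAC
24463 bp from Gm21961, chr15:65039320-65039429: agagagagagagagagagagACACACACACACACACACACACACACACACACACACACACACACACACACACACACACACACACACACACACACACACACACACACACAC

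A second set shows members at loci that the study's text names, again with capitals on the longest alternating tract of the peak. The windows at Mxi1 and Cngb3 hold the first 115 bp of tracts of 259 and 375 bp, and the other tracts are complete.
Mxi1 intron, chr19:53349265-53349394: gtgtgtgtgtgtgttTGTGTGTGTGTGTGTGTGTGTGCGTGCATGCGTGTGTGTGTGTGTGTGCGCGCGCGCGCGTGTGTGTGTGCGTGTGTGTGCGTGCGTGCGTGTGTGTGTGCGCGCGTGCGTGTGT
Src intron, chr2:157445024-157445084: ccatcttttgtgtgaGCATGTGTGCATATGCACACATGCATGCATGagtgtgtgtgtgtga
Pcdh7 intron, chr5:57759293-57759352: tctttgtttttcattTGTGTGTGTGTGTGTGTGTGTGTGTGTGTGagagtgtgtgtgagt
Cngb3 intron, chr4:19490184-19490313: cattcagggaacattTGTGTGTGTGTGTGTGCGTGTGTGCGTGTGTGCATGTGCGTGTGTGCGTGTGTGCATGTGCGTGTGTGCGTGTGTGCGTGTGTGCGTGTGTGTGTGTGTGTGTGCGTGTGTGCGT
Pdzd2 intron, chr15:12632330-12632454: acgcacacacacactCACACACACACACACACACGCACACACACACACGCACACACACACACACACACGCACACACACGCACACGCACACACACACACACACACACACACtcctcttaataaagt

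Another set shows the longest runs of the CACG unit, in capitals, with overlapping runs joined and a CpG dinucleotide in every unit.
9130204K15Rik intron, chr11:79791415-79791503: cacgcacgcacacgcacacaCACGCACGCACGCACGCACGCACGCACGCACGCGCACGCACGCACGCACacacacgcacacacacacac
298613 bp from Pitrm1, chr13:6249311-6249387: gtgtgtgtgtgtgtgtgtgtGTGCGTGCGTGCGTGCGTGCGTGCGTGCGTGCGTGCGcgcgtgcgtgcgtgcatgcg

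The last set shows members without an alternating tract of 20 bp or more. In those at Rasgrf2, Tex21, 1700123O12Rik and Gm21778 capitals mark the longest perfect tandem repeat, and in the other two, which lie on snRNA genes, capitals mark the bases of the peak.
Rasgrf2 intron, chr13:92044005-92044072: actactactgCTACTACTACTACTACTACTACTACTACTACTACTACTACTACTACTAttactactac
8738 bp from Tex21, chr12:76190232-76190270: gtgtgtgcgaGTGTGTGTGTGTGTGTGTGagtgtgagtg
1700123O12Rik intron, chr4:10666125-10666221: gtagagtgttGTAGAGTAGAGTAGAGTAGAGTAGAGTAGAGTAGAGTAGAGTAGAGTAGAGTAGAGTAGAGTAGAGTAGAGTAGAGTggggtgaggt
124439 bp from Gm21778, chrY:6069388-6069456: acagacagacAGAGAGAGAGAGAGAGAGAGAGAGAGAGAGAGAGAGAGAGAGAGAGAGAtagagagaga
Gm22513 snRNA, chr12:54696776-54696875: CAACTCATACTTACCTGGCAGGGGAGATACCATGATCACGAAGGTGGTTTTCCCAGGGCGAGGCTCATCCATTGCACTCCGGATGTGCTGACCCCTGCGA
Gm22068 snRNA within Tex14, chr11:87426716-87426815: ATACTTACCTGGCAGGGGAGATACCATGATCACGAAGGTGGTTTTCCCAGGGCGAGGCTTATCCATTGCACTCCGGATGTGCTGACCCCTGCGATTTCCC

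Each overlap that defined the members was met by more peaks than both together. Support by a 491K peak called against IgG was found for 43% of all 2043 input-controlled peaks, and recurrence with 100K cells for 29.6%, and nothing is read from these shares because they made the selection. The members touched 338 of the 897 IgG-controlled 491K peaks (37.7%) and 338 of the 630 input-controlled 100K peaks (53.7%). A single IgG-controlled peak lay under 322 members and a single 100K peak under 323. The best IgG-controlled peak was wholly contained in 321 members and the best 100K peak in 318. The centres of the lists' peaks lay close together, at a median distance of 14 bp from the member's centre for the IgG-controlled peak and 23.5 bp for the 100K peak. No member lay within 10 kb of another. Under a reciprocal overlap of 50% for both lists, 206 peaks met the rule.

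The limit of 1 bp did not cut through a crowd of borderline peaks. The smallest shared stretch with an IgG-controlled peak was 118 bp, at the members nearest to Agtr1b and to Snx7, and the next was 119 bp, at those nearest to Gm11983 and to Cit. Where a member is named by a gene it is near, that gene is the nearest protein-coding one and can lie far off, as Agtr1b does at 664598 bp. The smallest stretch shared with a 100K peak was 115 bp, near Itch, followed by 118 bp in Rims2 and in Brsk1. Just outside, the IgG-supported peaks closest to a 100K peak without touching it were separated from it by 1174 bp in Zfp516, by 2376 bp at a peak 31652 bp from Dap and by 3721 bp at a peak 52237 bp from Mocs1. The recurring peaks closest to an IgG-controlled peak lay 4934 bp away in Myh1, 13544 bp away at a peak 444942 bp from Adra2a and 14667 bp away in Aebp2.

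The members included most of the strongest input-controlled peaks. They made up 19 of the 20 highest-scoring 491K peaks, 81 of the highest 100 and 271 of the highest 500. The score was taken as 10 times the −log10 q-value of a peak, which the lowest values fit but no header states. Its median was 925.5 in the members (interquartile range 503 to 1593, lowest 65), against 152.5 in the IgG-supported peaks that did not recur, 393 in the recurring input-only peaks and 116 in the remainder. The members were also wide, with a median of 406 bp (236.5 to 628.5), against 309, 161.5 and 143 bp in the same order. In the other lists the members' median score was 212.5 against IgG with 491K cells (lowest 13) and 174 against input with 100K cells (lowest 22). Across the 330 members, the rank correlation of the input-controlled 491K score with the 100K score was 0.78 and with the IgG-controlled score 0.76, while the IgG-controlled 491K score and the 100K score correlated at 0.33. These values share libraries: the same ZBTB43 library with 491K cells stands behind both 491K scores, and 100K and 491K scores come from other cells and other inputs.

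The peaks with the highest scores held long CA repeats. A member in an intron of Mocos, the molybdenum cofactor sulphurase gene, scored 28657 against input, 3960 against IgG and 8555 with 100K cells over a tract of 342 bp. The member near 1700010I14Rik scored 20318, 2817 and 7373 over a tract of 389 bp. The member near Gm21961 scored 18913, 1424 and 7622 over 120 bp. Of the 10 highest, those nearest to Creg1, Kif6, Aebp2, Fam135b, Akap12 and Nedd1 lay outside genes and scored from 7086 to 13313 against input. In all 10 the longest tandem repeat was a CA repeat, of 109 bp near Creg1 and up to 349 bp near 1700010I14Rik. CG or GC steps made up 6.99% of the longest tract near Creg1 and 0% in each of the others. CA, AC, TG and GT steps made up 80.6% of it near Creg1, 90.8% near Akap12 and at least 98.2% in the others. Near Fam135b alternating tracts covered 264 of the 1641 bp of the peak. Counting all alternating tracts of a peak, 5 of the 10 held a CpG dinucleotide, beside 41.2% of all members.

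**Figure D1:**
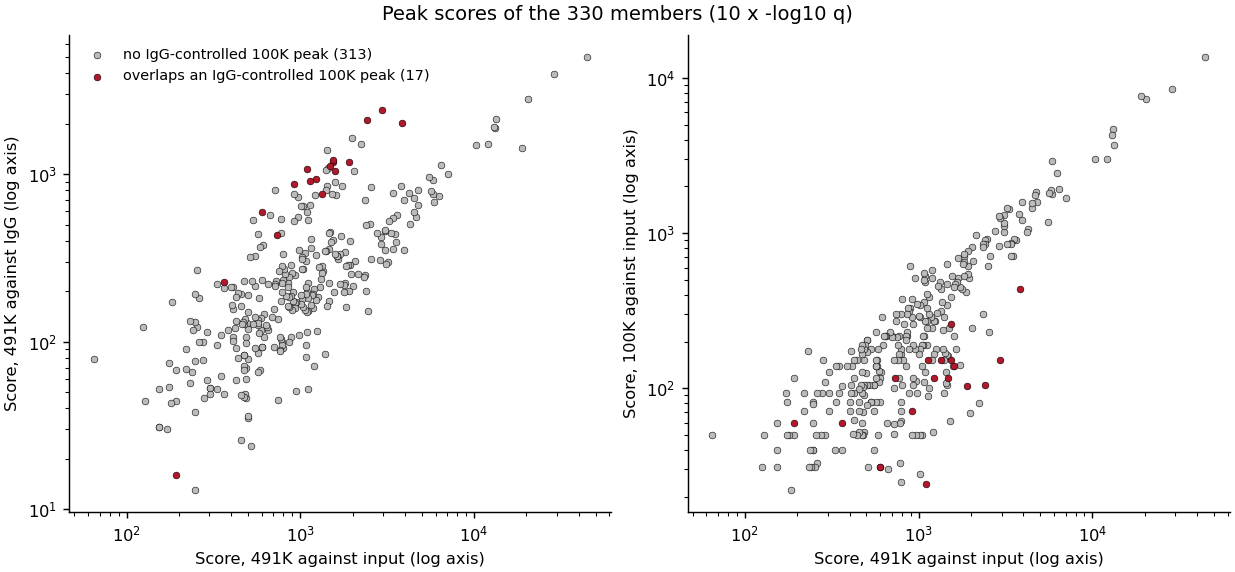
Each point is 1 of the 330 members; the horizontal axes give its score with 491K cells against input, and the vertical axes its best score against IgG (left) and with 100K cells (right), all on log axes. The 17 members in red overlap an IgG-controlled 100K peak, and 13 of them are among the 50 highest IgG-controlled scores on the left while none is among the 50 highest 100K scores on the right.

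The IgG-controlled 100K list held only 18 peaks and was not part of the selection, although it rests on the same 100K ZBTB43 library as the input-controlled one. Of the members 17 overlapped such a peak (5.15%, interval 3.24 to 8.1), beside 0.881% of all input-controlled 491K peaks and 1 of the 548 IgG-supported peaks that did not recur. With a reciprocal overlap of 50% the members' share fell to 0.303%. No input-only peak overlapped an IgG-controlled 100K peak by even 1 bp, and 0 of 274 and 0 of 891 have upper Wilson limits of 1.38% and 0.429% (limits of 3 counts are 1.09% and 0.337%). The members with this overlap were not the ones with the highest input scores. None of the 10 highest was among them, and 2 of the 17 ranked within the 50 highest members by the 491K score against input, whereas 13 ranked within the 50 highest against IgG and none within the 50 highest with 100K cells against input. Their median score was 1341 against input with 491K cells, 1046 against IgG and 116 with 100K cells, beside 912, 199 and 178 in the 313 members without it. Their median width was 902 bp, beside 399 bp, so width and IgG-controlled score moved together here, and the part of width in this overlap was not tested.

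These 17 loci were the members nearest to Chst1, a carbohydrate sulphotransferase gene, and to Tex21, Vapa, Slc27a6, Otoa, Irak1bp1 and Nup160, and those within Spg11, Mxi1, Shq1, Tshz2, Gpr160, Src, Pcdh7, Serpinb1b, Itsn2 and Cngb3. The highest score in the IgG-controlled 100K list was 181, at Shq1, a gene for an assembly factor of H/ACA ribonucleoproteins. The same member scored 1534 against input and 1173 against IgG with 491K cells, and 259 with 100K cells against input. Tshz2, a zinc-finger transcription factor gene, followed with 80, and its scores in the other lists were 1533, 1211 and 153. The largest 491K score of the 17 was 3848, near Chst1, with 2020 against IgG. The lowest was 192, near Nup160, where the peak lay on a 32-bp run of a single base and had 16 against IgG. At Serpinb1b and near Otoa the scores against input and against IgG were close, 1097 and 1076 at the first and 601 and 595 at the other, and their 100K scores were low at 24 and 31.

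Alternating tracts, in which purines and pyrimidines followed each other without a break for 20 bp or more, lay in 313 of the 330 members (94.8%, interval 91.9 to 96.8). The share was 77.1% over all input-controlled peaks, 86.7% in the IgG-supported peaks that did not recur, 72.3% in the recurring input-only peaks and 66.1% in the remainder. A CA tract of at least 10 units, read on either strand, lay in 312 members (94.5%, 91.5 to 96.5), beside 69.9% of all peaks and 67.9%, 71.9% and 61.4% in the other classes. CA tracts lie mostly within alternating tracts, so the shares are not independent of each other. Wide peaks offer more sequence to search. In a window of 200 bp at the centre of every peak the members' shares were 87.9% for alternating tracts (83.9 to 91) and 79.7% for CA tracts (75 to 83.7), beside 75% and 63% of all peaks. In that window 47.1% of the IgG-supported peaks that did not recur held a CA tract (42.9 to 51.3), and 70.8% of the recurring input-only peaks (65.2 to 75.9).

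**Figure D2:**
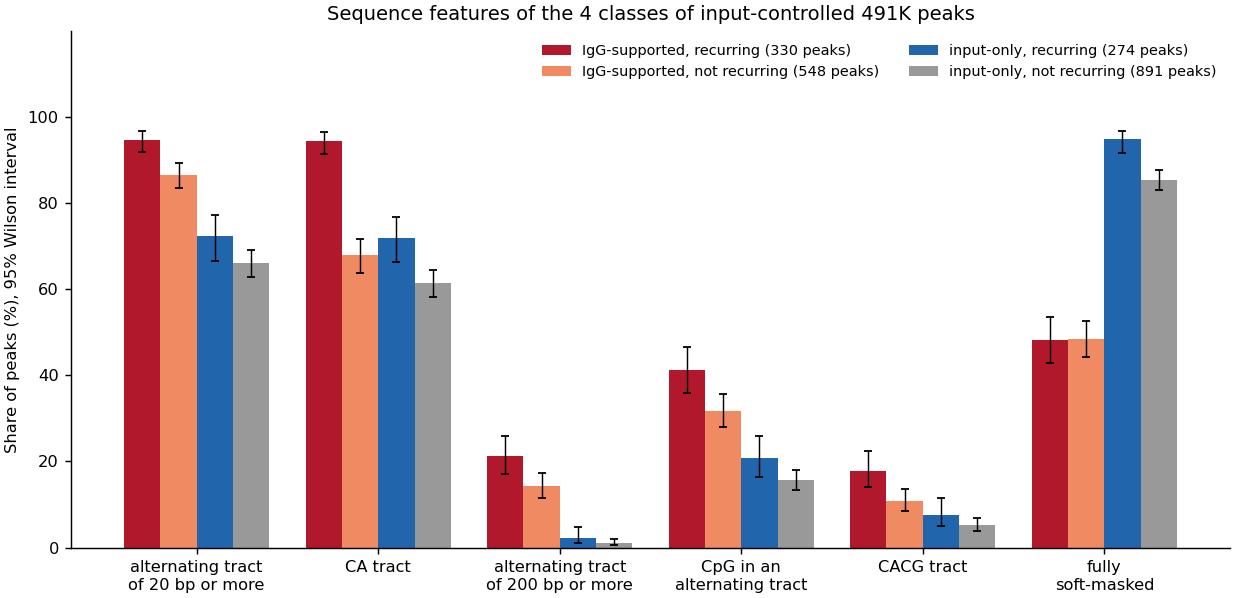
Bars give the share of peaks with each sequence feature in the 4 classes of input-controlled 491K peaks, with 95% Wilson intervals that cover counting error only. The 330 members (red) stand at 94.8% for alternating tracts, 94.5% for CA tracts and 48.2% for complete soft-masking.

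CA was also the prevailing tandem repeat. The longest perfect repeat of a 1 to 6 bp unit was a CA repeat in 294 members (89.1%), beside 66.6% of all peaks. GA repeats, which are purine-rich on a strand and do not alternate, led in 12 members (3.64%), beside 9.01% of all peaks, 2.01% of the IgG-supported peaks that did not recur, 15.3% of the recurring input-only peaks and 13.4% of the remainder. No tandem repeat of 20 bp was present in 5 members (1.52%), beside 16% of all peaks and 27%, 4.01% and 18.2% of those 3 classes in the same order. The CA repeats had a median of 42 bp and reached 391 bp, at the member near Gm10320. Where the peak lay within protein-coding genes of 1 strand, CA was on the sense strand of the gene in 51 members and TG in 74. The strands were not counted for the other peaks, so this split is not read as a trait of the members.

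The longest alternating tract of a member had a median of 57 bp (41 to 163), beside 43 bp over all peaks. Tracts filled a median of 65.3% of a member, beside 50.77% over all peaks. This was 44.59% in the IgG-supported peaks that did not recur, 58.96% in the recurring input-only peaks and 44.92% in the remainder. A tract of 200 bp or more was found in 70 members (21.2%, 17.1 to 25.9), beside 7.98% of all peaks, 14.2% of the IgG-supported peaks that did not recur and 2.19% of the recurring input-only peaks. Tracts were measured inside the called peak only, so a peak narrower than 200 bp could not hold a tract of that length. Upper-quartile widths were 196.2 bp in the recurring input-only peaks and 175 bp in the remainder, beside a median width of 406 bp in the members. The part of width in these lengths and shares was not tested. Of the 163 input-controlled peaks with a tract of 200 bp or more 42.9% were members, whereas of the 468 peaks without an alternating tract 3.63% were. The share did not rise steadily between them, with 14.9% for 20 to 50 bp, 23.4% for 50 to 100 bp and 14.9% for 100 to 200 bp. The longest tracts were those at Fam71e2 (869 bp), 284924 bp from Pik3r1 (844 bp), in an intron of Arid5b (735 bp), and near Zdhhc2 (633 bp) and Gm10320 (555 bp). Tract length and score ran together only loosely. The median 491K score against input was 930 in the 17 members without a tract, 771 with 20 to 50 bp, 924 with 50 to 100 bp, 1475 with 100 to 200 bp and 1021 with 200 bp or more. Over the 330 members the rank correlation of that score was 0.18 with the longest alternating tract and 0.37 with the longest CA tract.

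**Figure D3:**
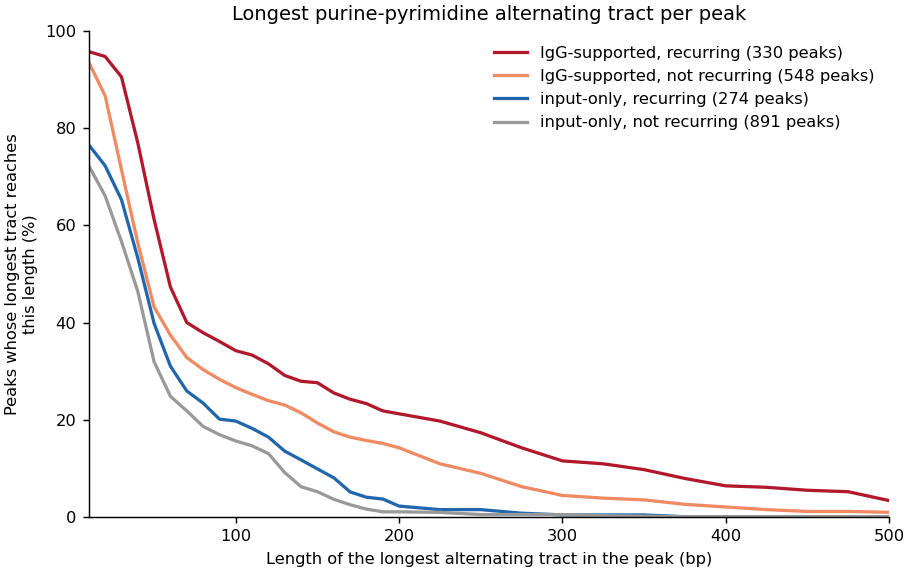
The horizontal axis gives a tract length in bp and the vertical axis the share of peaks whose longest alternating tract is at least that long, with a line for each of the 4 classes. The members (red) lie above the other classes, at 61.2% for 50 bp, 34.2% for 100 bp and 21.2% for 200 bp. Tracts were measured inside the peaks only, and the members were the widest class by median width.

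Alternating tracts were more frequent around the middle of the members than 200 bp away from it, without a maximum at the centre. The centre position itself was in a tract in 60% of the members, beside 47.3% of all peaks. The share was 68.5% at 70 bp to either side of the centre and 31.5% and 28.2% at 200 bp to the left and to the right. The centre of the longest tract lay a median of 81 bp from the peak centre, beside 45.5 bp over all peaks with a tract. It was 70.5 bp in the IgG-supported peaks that did not recur, 37.25 bp in the recurring input-only peaks and 34.5 bp in the remainder, which were narrower. With 100K cells, the recurring peak overlapped an alternating tract of the member in 309 of the 313 members that had one. Tracts filled a median of 65.3% of a member, and 318 of the 330 members held the whole best 100K peak. Such an overlap was therefore likely beforehand. It was not counted for the recurring input-only peaks, so nothing is read from it. A tract ran through to both ends of the peak in 14.8% of the members and 22.7% of all peaks.

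**Figure D4:**
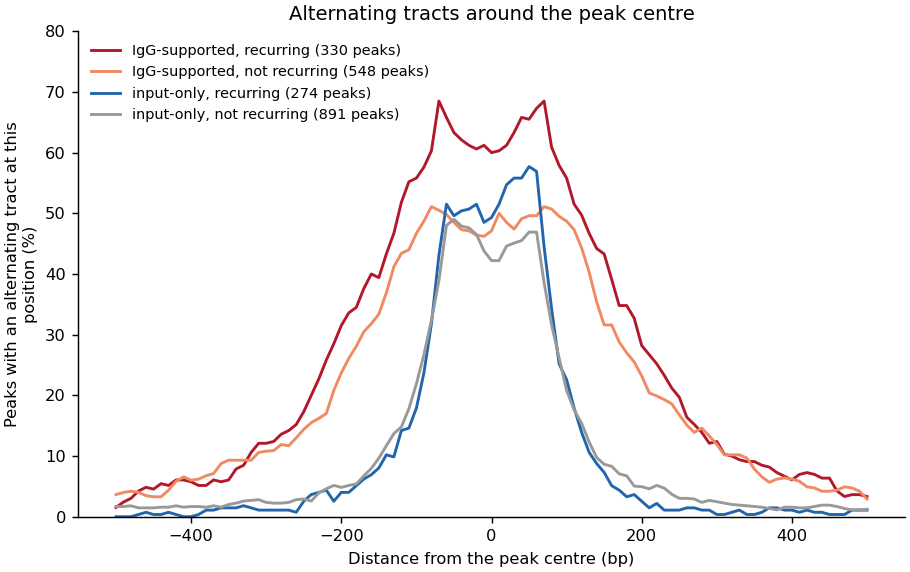
The horizontal axis gives the distance from the peak centre in bp and the vertical axis the share of peaks with an alternating tract of 20 bp or more at that position, for the 4 classes. The members (red) reach 68.5% at 70 bp on either side and hold 60% at the centre.

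Most steps within the tracts were CA steps. In the longest tract of the 313 members, CA, AC, TG and GT steps had a median share of 96.4%, near the 95.45% over all peaks with a tract. It was 90.48% in the IgG-supported peaks that did not recur. The recurring input-only peaks had 98.69% and the remainder 96.33%. CG and GC steps ranged from 0% to 38.1% in the members, the latter in an intron of Brsk1. A CpG dinucleotide, the target of DNA methylation, lay in an alternating tract of 136 members (41.2%), beside 24.8% of all peaks and 31.8%, 20.8% and 15.6% in the other classes. In the window of 200 bp these shares came closer, with 30.9% of the members (26.2 to 36.1) and 24% of all peaks. The CACG unit, in at least 2 copies in a row on either strand, lay in 59 members (17.9%, 14.1 to 22.4), beside 9.06% of all peaks and 10.8%, 7.66% and 5.16% in the other classes. With at least 4 copies the members' share was 5.15%. In the window of 200 bp a run of at least 2 copies lay in 14.5% of the members (11.1 to 18.8) and 8.03% of all peaks. The longest runs were 49 bp in an intron of the lincRNA gene 9130204K15Rik, 37 bp near Pitrm1, 35 bp at Fam71e2 and 5818 bp from Abca1, the cholesterol exporter gene, and 31 bp at 3 members, 281203 bp from Maf, 7248 bp from Hspa5 and 8521 bp from Zmiz1.

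Members with and without CpG in their tracts differed little in score against input. The 136 members with CpG had median scores of 919.5 against input, 224 against IgG and 140 with 100K cells, and the 177 members whose tracts held no CpG had 927, 197 and 191. Their tracts were longer, with a median of 125 bp against 50 bp, and their peaks wider, with 513.5 bp against 336 bp. An IgG-controlled 100K peak lay at 10 of the 136 (7.35%, 4.04 to 13), at 5 of the 177 (2.82%, 1.21 to 6.44) and at 2 of the 17 members without a tract. Conversely, 10 of the 17 members with an IgG-controlled 100K peak had CpG in a tract and 8 held a CACG tract. CpG-poor members with this overlap included Pcdh7 and Serpinb1b, with 0 CpG in their tracts, while the peak at Mxi1 had 89.

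**Figure D5:**
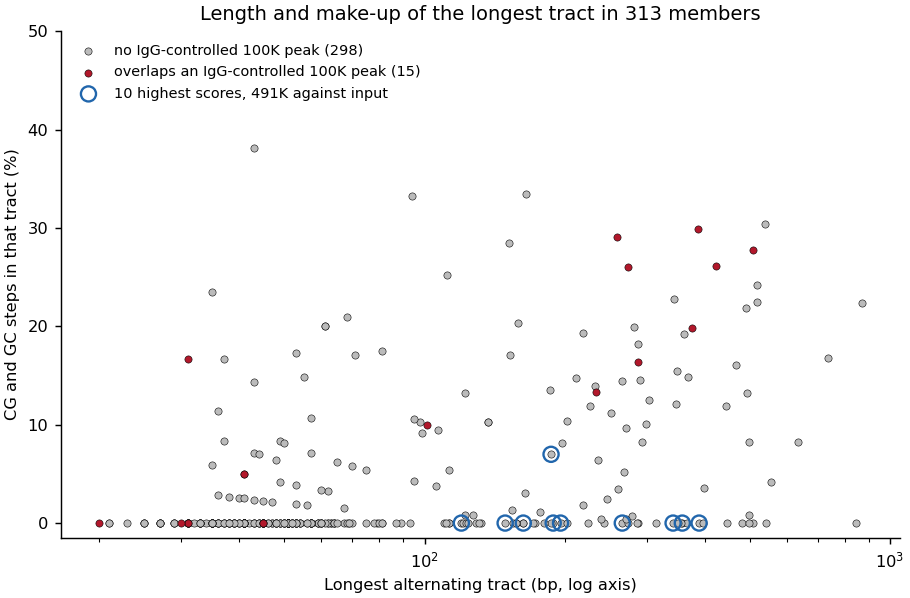
Each point is 1 of the 313 members with an alternating tract; the horizontal log axis gives the length of its longest tract in bp and the vertical axis the share of CG and GC steps in that tract. Red points (15) overlap an IgG-controlled 100K peak and reach 29.9%, and the 10 highest scores against input, ringed in blue, lie at 0% except for the 1 near Creg1 at 6.99%.

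Of the 11 loci that the study's text names, 7 had a member within the gene or 10 kb of it. The names come from a study of the same libraries, so this count is no independent evidence. At Src, the gene of a non-receptor tyrosine kinase, the peak at chr2:157444962-157445753 scored 1341 against input, 757 against IgG and 153 with 100K cells, and its longest tract was 31 bp. At Mxi1, the gene of a MAX-binding repressor, the peak at chr19:53348622-53349759 scored 1894, 1184 and 103 over a tract of 259 bp with 89 CpG in all its tracts. At Pcdh7, a protocadherin gene, the peak at chr5:57759162-57760161 scored 1138, 908 and 153 with a tract of 30 bp. These 3 were intronic, and so were the members at Tshz2, Cngb3 and Pdzd2.

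At Cngb3, the gene of a subunit of the cone photoreceptor channel, the peak at chr4:19490199-19490685 scored 733, 432 and 116, with a tract of 375 bp and 33 CpG in its tracts. At Pdzd2 the peak at chr15:12631977-12632553 scored 669, 573 and 30 and had no IgG-controlled 100K peak, unlike the others. At Shq1 the peak at chr6:100570828-100571729 was centred in the non-coding part of the gene's last exon in the annotation, over a tract of 423 bp with CG or GC steps at 26.1%. The alternating tracts of these loci thus spanned 30 bp to 423 bp, and those at Src and Pcdh7 were the short ones. A further locus, Dhx35, had an input-controlled peak that was no member, and Rps6kl1, Ago2 and Arid2 had none. The study names Rps6kl1, Ago2 and Arid2 for binding of the purified protein in vitro and for methylation lost in mutant sperm. It names the other loci for ChIP–seq peaks.

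Members lay mainly in introns and between genes. By the position of their centre, 32 were in promoters (9.7%, up to 3000 bp upstream of a start site), 2 in exons (0.606%), 146 in introns (44.2%) and 150 between genes (45.5%), beside 9.54%, 3.57%, 42.8% and 44.1% of all peaks. Promoters held 4.24% when they were set to reach 1000 bp to both sides, and also when protein-coding genes alone were used. None was centred in coding sequence, where 0 of 330 has an upper Wilson limit of 1.15% (a limit of 3 counts is 0.909%), beside 3.82% of all peaks. That share was 1.09% in the IgG-supported peaks that did not recur, 1.09% in the recurring input-only peaks and 7.74% in the remainder. Within 1000 bp of the start site of a protein-coding gene lay 4 members (1.21%, 0.472 to 3.07), beside 3.48% of all peaks and 3.1%, 2.19% and 4.94% of those classes in the same order. The 4 members were at Sftpb, the surfactant protein B gene (120 bp), Relt, a TNF receptor family gene (365 bp), Tex14, a gene needed for the intercellular bridges of germ cells (793 bp), and Olfm5 (876 bp). The member at Tex14 covered the snRNA gene Gm22068, which lies within Tex14. The 133 members centred in protein-coding genes fell in 132 genes. The exception was Fgfr2, the gene of a fibroblast growth factor receptor, with 2 members that scored 788 and 719. These started at chr7:132406890 and chr7:131754062 and were intronic by the annotated span of the gene. Their distance from the exons that encode the receptor was not examined.

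On chromosome X lay 2 members (0.606%, 0.166 to 2.18), beside 1.17% of all peaks, while X makes up 6.49% of the length of the autosomes and X. The share was 0.73% in the IgG-supported peaks that did not recur, 2.19% in the recurring input-only peaks and 1.35% in the remainder, so it was low in every class. The length share takes no account of the copy number of X in these male cells. The 2 members on X were in an intron of Rp2, with a score of 702, and 40877 bp from Xlr, with 1593. The most members were on chromosome 13, with 27 (8.18%), beside 5.09% of all peaks and 4.57% of that length.

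Gene lists of the germ line, of DNA methylation and of DNA repair were too short to be set apart from the background. Of 16 germ cell genes 1 had a member within 10 kb, and of the 8 DNA methylation genes and 14 DNA break and repair genes none did. Over all 21909 protein-coding genes 200 had a member within 10 kb (0.913%) and 1130 had any input-controlled peak (5.16%). The germ cell gene was Piwil4, whose protein takes part in piRNA-guided silencing of retrotransposons in prospermatogonia. The peak, at chr9:14746631-14747058, lay closer to Fut4 and scored 1263 against input, 184 against IgG and 178 with 100K cells. Its alternating tract of 304 bp held 19 CpG, with CG and GC steps at 12.5%. Dnmt3a, Kit and Pou5f1 had an input-controlled peak within 10 kb that was no member.

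The 17 members without an alternating tract were of several kinds. The highest, in an intron of Rasgrf2, the gene of an exchange factor for Ras, scored 4495 against input, 724 against IgG and 1459 with 100K cells over a 48-bp repeat of a 3-bp unit. Near Tex21 the peak of 1406 bp scored 2936, 2401 and 153, and its longest alternating run of 19 bp fell 1 bp short of the minimum. The member in 1700123O12Rik had a repeat of a 5-bp unit over 77 bp and scored 2058, and the one near Gm21778 on chromosome Y had a GA repeat of 49 bp and scored 1653. The fifth highest, in an intron of Ldlrad4, scored 1378 and had an alternating run of 18 bp.

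The other exception was a pair of snRNA genes. An annotated snRNA gene held the centre of 2 members (0.606%, 0.166 to 2.18), beside 3 of all 2043 peaks (0.147%). Among the other classes it held 1 of the 274 recurring input-only peaks (0.365%), 0 of 548 and 0 of 891, so such peaks were few everywhere. Gm22513 on chromosome 12 and Gm22068, which lies within Tex14 on chromosome 11, are both annotated in RefSeq as U1 spliceosomal RNA, the snRNA that pairs with the 5′ splice site. Both members covered all 164 bp of the gene. The peak at Gm22513 scored 1094 against input and 198 against IgG, and the peak at Gm22068 scored 487 and 60. They shared 103 31-mers outside soft-masked sequence, and no other pair among the 131 members with such sequence shared any. Since they are near-identical copies, reads may not have been assigned to each of them with certainty. Complete soft-masking, the annotation of repeats in the genome sequence, applied to 159 members (48.2%, 42.8 to 53.6), beside 70.8% of all peaks, 48.5% of the IgG-supported peaks that did not recur, 94.9% of the recurring input-only peaks and 85.5% of the remainder.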

How the data were processed

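ZBTB43, IgG and input ChIP–seq libraries of 15.5 dpc prospermatogonia were analysed from 4 deposited peak lists. Per the methods of the study and the submitters' processing notes, the authors trimmed paired-end reads (Trim Galore 0.6.0), aligned them to mm10 (BWA 0.7.17), kept proper pairs of high mapping quality, kept 1 read pair per position, called peaks per library with MACS2 2.2.7.1 at a q-value of 0.05 against input or IgG, and removed blacklisted regions. The mapping filter limits which repeats can be called, and the choice of control sets which peaks pass. The deposited score was used as given by the authors and read as 10 times the −log10 q-value as a whole number. No header says so, but its lowest value of 13 in the rule's lists is what a q-value of 0.05 gives. No columns of other samples or of authors' comparisons were present (0 columns).

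Overlaps, tracts and gene positions were computed in Python 3.11.15 (NumPy 2.4.6, SciPy 1.17.1, Matplotlib 3.10.9) from GRCm38.p6 RefSeq sequence and GENCODE annotation of the same build. Code was checked on simulated intervals and tracts, of which 200 of 200 were recovered. Where several peaks overlapped a member, the highest-scoring one stood for it. Members, gene lists and features were chosen with earlier results of these data known. Loci are named if they had the 10 highest scores, an IgG-controlled 100K peak, a locus named in the study, the 5 longest alternating or CACG tracts, the 5 highest scores without a tract, the 3 smallest overlaps of each kind or gaps just outside, or lay in coding sequence, on X or within 1000 bp of a coding start. The Piwil4, Fgfr2 and snRNA members were named after their values were seen. The reads behind each library are not given by peak lists, so no precision beyond counting error can be stated. Stricter q-values, other overlaps, tract minima, windows and gene definitions were tried as alternatives. A locus among the 10 highest scores and a sequence are not reported here. Ties with the last of the named CACG runs and overlaps were added after their values were seen.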

Additional observations from a re-analysis of the deposited data

How the results depend on the processing

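No paired analysis was possible because every arm of the design has only 1 library. Of 41 alternative values, 27 stayed within the limit set for them (1.5 times for the count, the 95% interval for shares and medians) and 14 did not. With a reciprocal overlap of 50% the members numbered 206, their median width was 282.5 bp, their median scores were 1048 against input with 491K cells and 230 with 100K cells, and 0.303% of the 330 members overlapped an IgG-controlled 100K peak. Longer tract minima (30 bp, 15 CA units, 4 CACG units) gave shares of 90.6%, 81.8% and 5.15%, and the 200-bp centre window gave 87.9% for alternating and 79.7% for CA tracts. A promoter of 1000 bp either side took 4.24% of the members, and genes restricted to protein-coding ones gave 4.24% in promoters, 37.9% in introns and 57.6% between genes. These alternatives used a stricter overlap, fewer peaks, less sequence or fewer genes, and why each value moved was not tested. With 1 library per antibody and cell number, no spread between libraries of the same cell number can be given. For recurrence with 100K cells, the lower cell number cannot be told apart from the reads left in that library after filtering, which the lists do not give.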
